A study of Homo sapiens with 9 samples.

Results

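Mammary lineage transcription factors are the 9 genes GATA3, FOXA1, ESR1, ELF5, EHF, SOX9, SOX10, TP63 and FOXC1, taken by symbol from a table of 56809 genes. All 9 symbols were found, each standing for 1 gene of GENCODE release 29, and 7 passed the filter on low counts (ELF5 and SOX10 did not). Their RNA was followed in MDA-MB-468, an established line from a human breast adenocarcinoma, in 3 libraries of cells carrying the empty lentiviral vector pSicoR (control), 3 carrying the hairpin shLMO2-1 and 3 carrying the hairpin shLMO2-2. Both hairpins carry the name of LMO2, a cofactor with LIM domains that joins DNA-binding proteins, GATA factors among them, into transcription complexes. No group carried a hairpin without a target, so an effect of LMO2 loss and one of expressing any hairpin cannot be told apart here. The labels do not say whether libraries of a group came from separate infections, so p-values measure only the spread between these libraries.

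In the mammary gland, luminal cells line the ducts and basal cells surround them. GATA3, FOXA1 and the oestrogen receptor ESR1 form the core regulatory circuit of hormone-responsive luminal cells, ELF5 directs the milk-producing alveolar lineage, and TP63 maintains basal cells. SOX9, SOX10 and FOXC1 are known for progenitor and basal-like states, and FOXC1 is a widely used marker of basal-like breast cancer.

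Epithelial RNA dominated every library. The 8 epithelial and basal-like markers (EPCAM, CDH1, KRT8, KRT18, KRT5, KRT6B, EGFR and VIM) summed to 12250 to 15380 CPM (a gene's counts relative to its library's total, with totals scaled by the TMM method), and EGFR alone lay between 4784 and 7937 CPM. Summed markers of other cell types stayed at 1.51 to 5.72 CPM for leukocytes, 7.18 to 19.4 for endothelium, 11.3 to 17.6 for fibroblasts and 0.687 to 1.17 for adipocytes, and CD3E and ADIPOQ were at 0 in all 9 libraries. Leukocyte markers were lower in all 3 controls (1.51 to 2.12 CPM) than in shLMO2-1 (3.15 to 5.72) and shLMO2-2 (3.97 to 4.51), and their part in the results was not tested. Library totals ran from 15494486 to 23069456 counts. LMO2 itself had 4, 35 and 19 counts in control, 2, 1 and 6 in shLMO2-1 and 1, 4 and 3 in shLMO2-2. Its log2 fold change was −2.44 (SE 0.814, adjusted p 0.091 by edgeR) in shLMO2-1 and −3.02 (SE 0.82, adjusted p 0.0443) in shLMO2-2, so the check of the target passed in shLMO2-2 and not in shLMO2-1, where control replicate 1 overlapped the hairpin libraries. Even the shLMO2-2 call was lost in 7 of the 9 fits that left out 1 library, all but those without control replicate 1 and shLMO2-1 replicate 3 (adjusted p 0.0622 to 0.139), with limma-voom (0.0931) and in a fit of the 2 groups alone (0.0622). In shLMO2-1 LMO2 passed in some settings, among them the fit without control replicate 1 (0.0273) and that with all genes kept (0.0253). Since RNA came from all cells of a culture together, fewer cells with a transcript and less of it per cell cannot be told apart.

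The 9 factors spanned a wide range of levels, set out here as CPM per kilobase of the longest coding transcript so that genes of different length can be compared. In control, SOX9 stood at 49.5 ± 2.66 and EHF at 27.6 ± 2.43, followed by FOXC1 at 12.9 ± 1.47, GATA3 at 12.1 ± 1.31 and FOXA1 at 8.41 ± 0.99 (CPM per kilobase, SD, n = 3). ESR1 (0.832 ± 0.176) and TP63 (0.31 ± 0.0716) were far lower, with no library of either above 1 CPM per kilobase, ELF5 (0.176 ± 0.183) was lower still, and SOX10 (0.00612 ± 0.0106) rested on a single count. FOXC1 and GATA3 did not differ beyond their spread in control, with libraries at 11.3 to 14.2 and 11.2 to 13.6. Their order turned when the median transcript length was used (13.1 for FOXC1 and 13.6 for GATA3), as did that of SOX9 and EHF (49.6 and 58.6), since the table does not say which EHF transcripts were present. In shLMO2-1 FOXC1 (20.9 to 21.2 CPM per kilobase) lay clear of GATA3 (12.9 to 14.2), and in shLMO2-2 the ranges were 15.7 to 17.6 and 13.3 to 14.8.

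**Figure D1:**
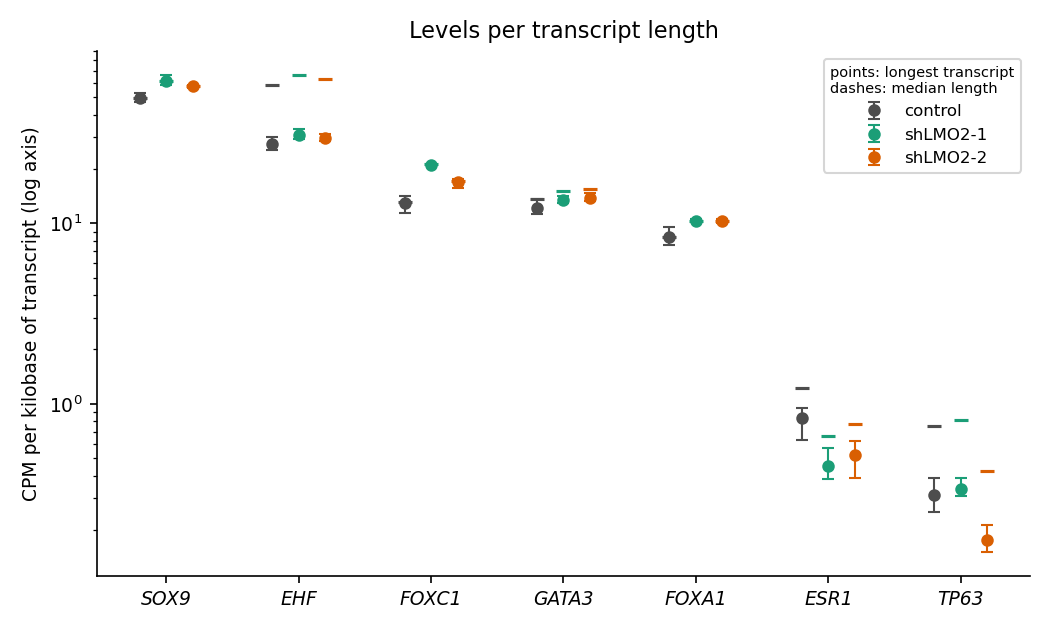
Levels of the 7 members that passed the low-count filter, in CPM per kilobase on a log axis, in control, shLMO2-1 and shLMO2-2. Points are means of 3 libraries for the longest coding transcript, lines run from the lowest to the highest library, and dashes give the mean for the median coding transcript length. SOX9 and EHF lie highest, and ESR1 and TP63 lie below all the others by either length.

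Among the 9 genes, FOXC1 and SOX9 rose in shLMO2-1 and FOXC1 alone rose in shLMO2-2. With both hairpins averaged, FOXC1, SOX9 and FOXA1 rose, ESR1 fell, and the other 5 did not pass. These calls rest on an adjusted p under 0.05 from edgeR's quasi-likelihood test over 14711 genes. They amount to 2 of 9 members in shLMO2-1, where 8.41% of all tested genes were called (4.53% as higher), 1 of 9 in shLMO2-2 (8.95% of all genes, 4.93% as higher) and 4 of 9 in the mean of both hairpins (12.4% of all genes, 6.46% as higher and 5.93% as lower). Both hairpins were compared with the same 3 control libraries, so the sets of changes are not independent of each other. The median log2 fold change of the 9 members was 0.17 in shLMO2-1 and 0.10 in shLMO2-2, where the median of all tested genes was 0.00 in both. These medians include fitted values of ELF5 and SOX10, which rest on few counts; over the 7 members that passed the filter they were 0.17 and 0.19. In 5 of 9 members the shLMO2-1 and control libraries did not overlap (28.3% of all tested genes had no overlap). SOX10 was among these, with 1 count in each shLMO2-1 library. Control replicate 3 also held 1 SOX10 count, so only the scaling by library totals separated them. In 5 of 9 members the shLMO2-2 and control libraries did not overlap (29.9% of all genes). All 6 hairpin libraries lay outside the control range on 1 side in 4 of 9 members (16.7% of all genes).

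**Figure D2:**
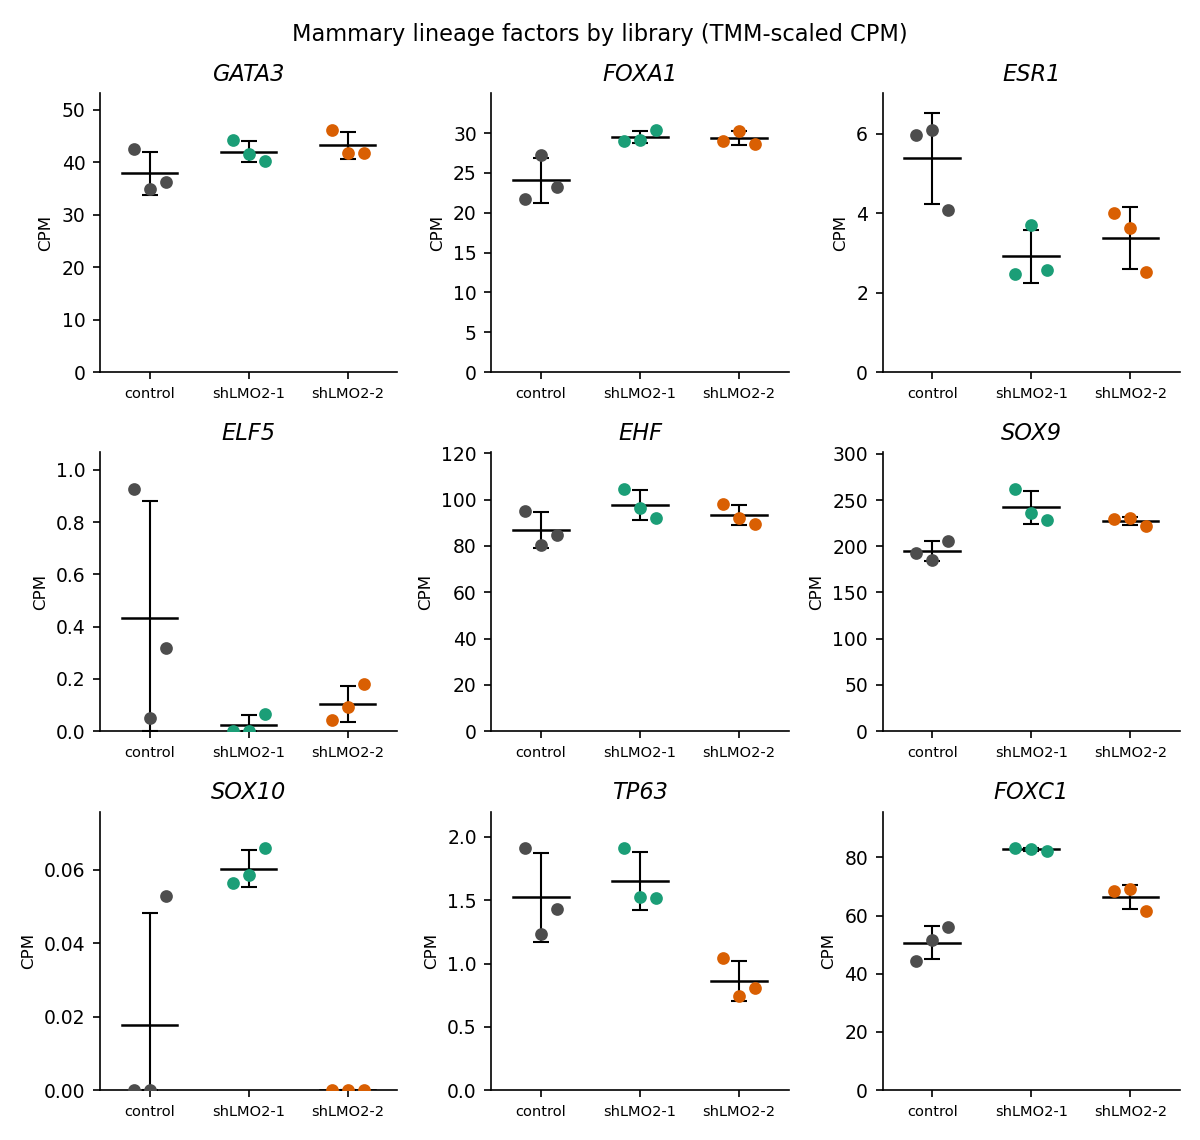
CPM of each member in the 9 libraries, 1 panel per gene with its own linear axis from 0. Points are libraries in the order of their replicate number, horizontal bars are group means and vertical lines are 1 SD, drawn no lower than 0. All 6 hairpin libraries lie above the 3 controls for FOXC1, SOX9 and FOXA1 and below them for ESR1, whereas ELF5 and SOX10 stay below 1 CPM in every library.

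FOXC1 is a forkhead factor encoded on chromosome 6 at 1609972–1613897 (GRCh38, plus strand, GENCODE 29), with no annotated gene overlapping it. It was the member with the lowest adjusted p in both hairpins. Its level was 44.5, 51.8 and 55.9 CPM in control replicates 1 to 3, 83.3, 82.8 and 82.2 CPM in shLMO2-1, and 68.5, 69.1 and 61.7 CPM in shLMO2-2. No library of any group overlapped another group, and the 3 shLMO2-1 libraries agreed to within a coefficient of variation of 0.651%, against 11.4% in control. The log2 fold change was 0.71 (SE 0.086, adjusted p 0.000877) in shLMO2-1, a 1.63-fold higher level. In shLMO2-2 it was 0.39 (SE 0.0857, adjusted p 0.0202), or 1.31-fold. The shLMO2-1 call held in all 9 fits that left out 1 library, whereas the shLMO2-2 call was lost without shLMO2-2 replicate 1 (adjusted p 0.069) or 2 (0.0861) and in a fit of the 2 groups alone (0.0566).

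FOXC1 was lower in shLMO2-2 than in shLMO2-1 by 0.32 on the log2 scale (95% interval of the log2 fold change −0.50 to −0.13), but the difference did not pass (adjusted p 0.152). It passed with DESeq2 (adjusted p 0.0376), in a fit of the 2 hairpin groups alone (0.048) and without control replicate 1 (0.0356). Over all 19 alternatives the adjusted p ran from 0.0356 to 0.461.

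The sequence before the FOXC1 start is shown beside one for ESR1 because these 2 members had the largest called changes, in opposite directions. Each is the 250 bases upstream of a RefSeq transcript start (GRCh38.p14), 5′ to 3′ on the gene's strand. Capitals mark matches, on either strand, to GATAA (bound by GATA factors), CANNTG (the E-box, bound by the helix-loop-helix partners of LMO2) or GTAAACA (bound by forkhead factors). FOXC1 spans chr6:1609665-1609914, plus strand. The ESR1 window, chr6:151656422-151656671, plus strand, is the most upstream of its 6 listed starts, and the table does not say which start these cells use.
FOXC1: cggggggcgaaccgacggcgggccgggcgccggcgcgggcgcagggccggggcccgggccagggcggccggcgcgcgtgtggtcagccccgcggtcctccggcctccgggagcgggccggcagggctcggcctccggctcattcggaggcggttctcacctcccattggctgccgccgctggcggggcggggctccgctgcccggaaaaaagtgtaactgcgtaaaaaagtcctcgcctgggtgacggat
ESR1: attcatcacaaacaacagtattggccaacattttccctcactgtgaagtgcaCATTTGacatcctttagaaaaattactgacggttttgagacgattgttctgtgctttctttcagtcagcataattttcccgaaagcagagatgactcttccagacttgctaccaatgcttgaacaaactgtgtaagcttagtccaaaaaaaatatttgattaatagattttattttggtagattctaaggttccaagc
The FOXC1 window is 76.8% G and C and holds none of the 3 motifs, while the ESR1 window is 36.0% G and C and holds 1 CANNTG match that begins 198 bases before the start. Windows before the other ESR1 starts are 40.4% to 60.8% G and C, each with 1 or 2 CANNTG matches. Of 35116 RefSeq windows of this length, 20.4% hold GATAA, 61.8% hold CANNTG and 2.98% hold GTAAACA. These matches describe letters in the window and were not tested against binding.

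Of the luminal circuit, ESR1 fell and FOXA1 rose in the mean of both hairpins, and GATA3 did not pass. ESR1, the oestrogen receptor, lies on chromosome 6 at 151656691–152129619 (plus strand). Its level was 5.97, 6.10 and 4.07 CPM in control, 2.47, 3.69 and 2.57 CPM in shLMO2-1, and 4.001, 3.62 and 2.52 CPM in shLMO2-2. Every hairpin library lay below every control, by a narrow margin between control replicate 3 and shLMO2-2 replicate 1. The mean of both hairpins gave a log2 fold change of −0.78 (SE 0.209, adjusted p 0.0342), a level 1.71-fold lower. Neither hairpin passed alone: shLMO2-1 gave −0.88 (SE 0.252, adjusted p 0.0548) and shLMO2-2 gave −0.67 (SE 0.243, adjusted p 0.114).

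ESR1 rested on 39 to 119 counts a library. Its call in the mean of both was lost without control replicate 1 (adjusted p 0.0884) or 2 (0.108), shLMO2-1 replicate 1 (0.0665) or 3 (0.0679), or shLMO2-2 replicate 2 (0.0608) or 3 (0.0587). For shLMO2-1 alone the call appeared in several settings, among them the fits without control replicate 3 (0.0499) or shLMO2-2 replicate 3 (0.0489), with total-count scaling (0.049), with all genes kept whatever their counts (0.0105), with genes limited to those at 10 or more counts throughout (0.0479) and with DESeq2 (0.0224). The fold change was negative in every alternative, between −1.09 and −0.50 over both hairpins.

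FOXA1, the forkhead factor that opens chromatin for the oestrogen receptor, went the other way. It lies on chromosome 14 at 37589984–37596059 (minus strand) and overlaps TTC6 on the opposite strand, which had 2 to 17 counts a library. FOXA1 stood at 21.7, 27.2 and 23.2 CPM in control, at 28.97, 29.1 and 30.4 CPM in shLMO2-1 and at 28.96, 30.3 and 28.7 CPM in shLMO2-2. All 6 hairpin libraries were above all 3 controls, and the hairpins differed by −0.01 on the log2 scale (95% interval −0.21 to 0.20). The mean of both was 0.29 (SE 0.082, adjusted p 0.0423), or 1.221-fold higher. Each hairpin alone fell short, at 0.29 (SE 0.0941, adjusted p 0.0811) and 0.28 (SE 0.0932, adjusted p 0.0848).

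The FOXA1 call is the least stable of the 4. It was lost in 8 of the 9 fits that left out a library, with adjusted p-values from 0.0656 without shLMO2-1 replicate 1 to 0.149 without control replicate 3, and remained only without control replicate 2, where each hairpin alone passed too (0.033 and 0.0299). It was also lost with upper-quartile scaling (0.0506), total-count scaling (0.0626) and with all genes kept (0.053).

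GATA3, the zinc-finger factor required for luminal differentiation, lies on chromosome 10 at 8045378–8075203 (plus strand). Levels were 42.6, 35.0 and 36.2 CPM in control, 44.2, 41.6 and 40.2 CPM in shLMO2-1 and 46.1, 41.8 and 41.6 CPM in shLMO2-2. Control replicate 1 lay inside the range of the hairpin libraries. The log2 fold changes were 0.15 (95% interval −0.05 to 0.35, adjusted p 0.35) and 0.19 (−0.01 to 0.39, adjusted p 0.22) in shLMO2-1 and shLMO2-2, so neither passed. GATA3-AS1, which overlaps GATA3 on the opposite strand, had 1 to 9 counts, against 610 to 1061 for GATA3.

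ELF5 and EHF are related ETS factors that neighbour each other on chromosome 11, at 34478793–34513805 (minus strand) and 34621093–34661057 (plus strand), with no coding gene in the 107.3 kb between them. Their levels were far apart. EHF, an epithelial ETS factor, was second to SOX9 by CPM, at 95.3, 80.3 and 84.9 CPM in control, 104.7, 96.5 and 91.98 CPM in shLMO2-1 and 97.98, 92.1 and 89.7 CPM in shLMO2-2. The groups overlapped, with log2 fold changes of 0.17 (95% interval −0.00 to 0.35, adjusted p 0.219) and 0.10 (−0.07 to 0.28, adjusted p 0.465).

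ELF5 had 16, 1 and 6 counts in control, 0, 0 and 1 in shLMO2-1 and 1, 2 and 4 in shLMO2-2. Control replicate 1 held 16 of the 23 control counts, and control replicate 2 lay within the range of both hairpins. Summed over libraries, the control rate was 21.2 times that of shLMO2-1 (95% counting interval 3.44 to 872.4) and 4.07 times that of shLMO2-2 (1.69 to 11.2). These intervals cover counting error only. In the fit over libraries the mean of both hairpins did not pass (adjusted p 0.0604). It passed in several settings, among them the fit without control replicate 2 (0.0271), where shLMO2-1 alone passed too (0.0448), and those with all genes kept (0.0288), with the other genes limited to those at 10 or more counts throughout (0.049) and with DESeq2 (0.0488). Its adjusted p spanned 0.0271 to 0.321 over 18 alternatives.

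SOX9, an SRY-related factor of luminal progenitors, is the most abundant member by CPM. It lies on chromosome 17 at 72121020–72126420 (plus strand). Levels were 192.8, 185.5 and 206.1 CPM in control, 262.1, 236.2 and 228.3 CPM in shLMO2-1, and 229.7, 230.4 and 221.9 CPM in shLMO2-2. Every hairpin library lay above every control. The rise in shLMO2-1 was 0.31 on the log2 scale (SE 0.0674, adjusted p 0.0174), or 1.24-fold. In shLMO2-2 the value was 0.22 (SE 0.0673, adjusted p 0.0651), which passed with DESeq2 (0.0278). The hairpins did not differ past the threshold (−0.09, 95% interval −0.24 to 0.06).

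The mean of both hairpins for SOX9 was 0.27 (SE 0.0589, adjusted p 0.0147), and this call was lost without control replicate 2 (0.0527). The shLMO2-1 call was lost without control replicate 2 (0.0549), shLMO2-1 replicate 1 (0.0674) or shLMO2-1 replicate 2 (0.0538), and in a fit of the 2 groups alone (0.0561). SOX9-AS1, on the opposite strand, held 14 to 34 counts, against 3325 to 5282 for SOX9.

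SOX10, the close relative of SOX9 that marks neural crest and many triple-negative tumours, was all but absent from the counts. It had 0, 0 and 1 counts in control, 1, 1 and 1 in shLMO2-1 and 0, 0 and 0 in shLMO2-2, out of 172773355 counts in all. A count of 0 over the 3 shLMO2-2 libraries allows a level of up to 0.0443 CPM (3 counts of the group total). No fold is given, since every library was under that floor of 3 counts. It is encoded on chromosome 22, minus strand, at 37970686–37987422, and overlaps POLR2F (1072 to 1956 counts a library) on the opposite strand, and the use of strand in counting is not given in the sources used here.

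TP63 encodes p63, a factor of basal epithelial cells, on chromosome 3 at 189631416–189897279 (plus strand). It was low in all groups, at 1.91, 1.23 and 1.43 CPM in control, 1.91, 1.52 and 1.52 CPM in shLMO2-1 and 1.04, 0.743 and 0.809 CPM in shLMO2-2, from 16 to 34 counts a library. The shLMO2-2 libraries lay below all others, while shLMO2-1 overlapped control. Against control the log2 fold change was 0.12 in shLMO2-1 (SE 0.294, adjusted p 0.85) and −0.81 in shLMO2-2 (SE 0.303, adjusted p 0.125). Between the hairpins it was −0.93 (95% interval −1.59 to −0.26, adjusted p 0.271). None of these passed, and the shLMO2-1 value turned to −0.01 without control replicate 2.

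Between the hairpins, edgeR called 0 of the 9 members, where 0.768% of all tested genes were called. At an unadjusted p under 0.05 there were 2 (FOXC1 and TP63, both lower in shLMO2-2). Of all 14711 tested genes, 1926 had an unadjusted p of 0.0704 or lower by edgeR. DESeq2 called 1 member and 320 of all genes, and limma-voom called 0 members and 122 of all genes. In 3 of 9 members the libraries of the hairpins did not overlap (18.1% of all tested genes), and these were FOXC1, TP63 and SOX10.

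**Figure D3:**
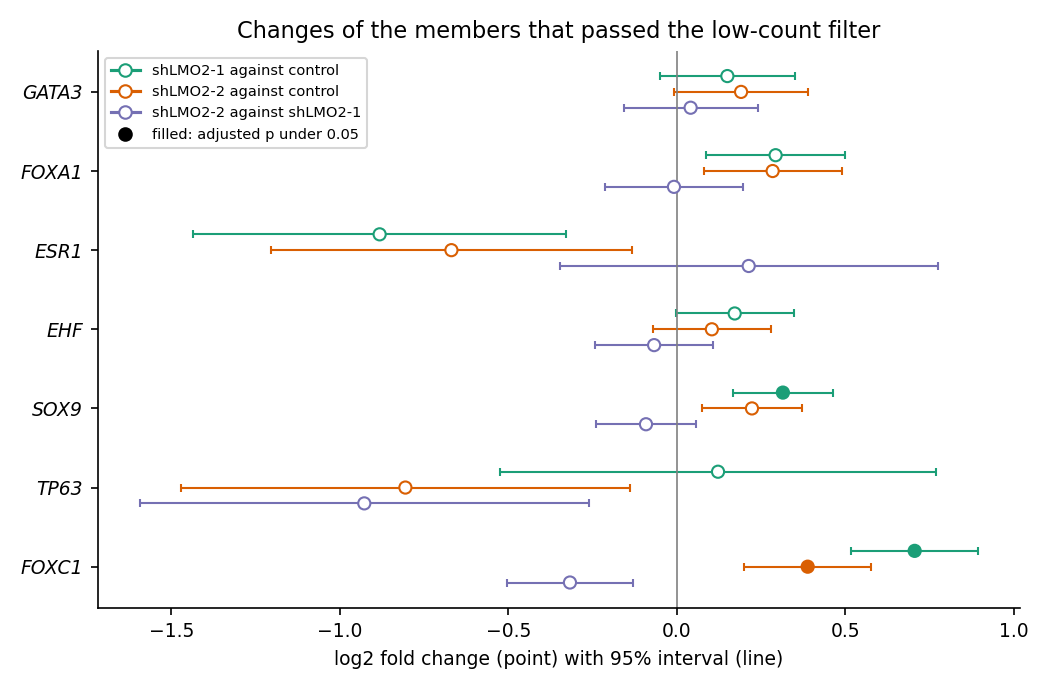
Log2 fold changes of the 7 members that passed the low-count filter, for shLMO2-1 against control, shLMO2-2 against control and shLMO2-2 against shLMO2-1. Points are estimates, lines are 95% intervals from the quasi-likelihood fit, and filled points passed an adjusted p under 0.05. FOXC1 is filled for both hairpins and SOX9 for shLMO2-1, and the widest intervals belong to ESR1 and TP63.

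For each called member, the genes with the most similar course over the 9 libraries were sought among 1602 genes that changed in the mean of both hairpins and averaged at least 5 CPM. Likeness was the root mean square difference of log2 CPM after centring each gene on its control mean. Closest to FOXC1 were MN1 (0.0847 log2 units) and PDGFC (0.0885), with log2 fold changes of 0.73 and 0.44 for MN1 and 0.81 and 0.41 for PDGFC in shLMO2-1 and shLMO2-2. SOX9 was matched most closely by SELENON (0.0476) and GIT1 (0.0582), FOXA1 by IRAK1 (0.0568) and PCCB (0.0631), and ESR1 by RGPD1 (0.222) and DENND2D (0.237). RGPD1 belongs to a family of near-identical genes and is uncertain.

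Each family was carried by few of its genes. Among GATA factors, GATA3 (12.1 ± 1.31 CPM per kilobase in control) was followed by GATA6 (5.42 ± 0.756) and GATA2 (3.08 ± 0.211), and GATA1 and GATA4 had 0 counts in every library. None of GATA2, GATA5 and GATA6 was called in either hairpin (adjusted p 0.0716 to 0.897). SOX9 was the one SOXE gene with more than 1 count in a library, as SOX8 was at 0. FOXC2 was also at 0, FOXA2 and FOXA3 reached at most 2 and 5 counts, and ESR2 at most 4. TP73 (4.54 ± 0.392 CPM per kilobase), a relative of TP63, exceeded it (0.31 ± 0.0716) in control. Among the epithelial ETS factors, SPDEF (27.5 ± 1.9 CPM per kilobase) and ELF3 (19.6 ± 3.6) stood near EHF (27.6 ± 2.43).

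Related genes in 7 groups were then counted, from lists that hold no member. Of all tested genes, edgeR called 8.41% in shLMO2-1, 8.95% in shLMO2-2 and 12.4% in the mean of both. Of 13 luminal regulators 8 were tested, and 1 fell in shLMO2-1 and 1 rose in shLMO2-2. SPDEF, a luminal ETS factor, rose in shLMO2-2 from 52.0 ± 3.6 to 74.0 ± 5.12 CPM (SD, n = 3), a log2 fold change of 0.51 (adjusted p 0.00363), and stood at 57.0 ± 2.96 CPM in shLMO2-1. XBP1, an oestrogen-responsive factor of the secretory pathway, fell by 0.28 in shLMO2-1 (adjusted p 0.037), a call lost in 5 of 9 fits without a library (highest adjusted p 0.134). PGR and TBX3 had 0 counts in all 9 libraries, which allows up to 0.0174 CPM over their total. The list's median log2 fold change in the mean of both hairpins was 0.06, where that of all genes was −0.00.

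Of 14 basal and progenitor regulators 11 were tested. In each hairpin 2 rose and 1 fell, with a list median of 0.11 in the mean of both. TCF7L1, a repressor in WNT signalling, rose from 64.5 ± 5.38 CPM to 98.7 ± 9.37 in shLMO2-1 (0.62, adjusted p 0.00291) and 86.1 ± 6.57 in shLMO2-2 (0.42, adjusted p 0.0201), the second call being lost in 4 of 9 fits without a library (highest adjusted p 0.0893). ID4, an inhibitor of helix-loop-helix factors, rose in shLMO2-1 (0.31, adjusted p 0.0229), a call lost in 4 of 9 fits (highest 0.0825), and differed between the hairpins by −0.49 (adjusted p 0.00756), a call that held in all 9. SOX11 rose in shLMO2-2 (0.37, adjusted p 0.0265), but not without shLMO2-2 replicates 2 or 3 (0.0803 to 0.109). EN1 fell in shLMO2-1 from 8.18 ± 0.348 to 4.43 ± 1.19 CPM (−0.88, adjusted p 0.0142), but not without shLMO2-1 replicates 2 or 3 (0.0535 to 0.0568). SNAI2, SOX8 and FOXC2 were at 0 in all libraries.

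All 13 epithelial ETS, grainyhead and Kruppel-like factors were tested, with a list median of 0.11 in the mean of both. In shLMO2-1 3 rose: ETV4 from 11.04 ± 0.857 to 19.5 ± 0.927 CPM (0.82, adjusted p 0.00321), ETV5 by 0.57 (adjusted p 0.033) and ELF4 by 0.32 (adjusted p 0.0193). The ETV4 call held in all 9 fits without a library, while that of ETV5 was lost in 7 (highest adjusted p 0.129) and that of ELF4 in 4 (0.088). In shLMO2-2 edgeR called 0 of the 13, with 3 at an unadjusted p under 0.05, 1 called by DESeq2 and 0 by limma-voom. Of all 14711 tested genes, 3916 had an unadjusted p of 0.0587 or lower there by edgeR. DESeq2 called 1837 of all genes and limma-voom 1372.

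Prolactin and alveolar genes (12 listed, 7 tested) held 2 that fell. FOLR1, the folate receptor, fell from 6.56 ± 0.883 CPM to 2.26 ± 0.191 in shLMO2-1 (−1.53, adjusted p 0.00158) and 2.45 ± 0.505 in shLMO2-2 (−1.42, adjusted p 0.00231). STAT5A, which transmits prolactin signals, fell in shLMO2-2 (−0.37, adjusted p 0.0148), but not without shLMO2-2 replicates 2 or 3 (0.0503 to 0.0595). The milk protein genes LALBA, CSN1S1, CSN2 and CSN3 were at 0, and the list median in the mean of both was −0.06.

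Oestrogen response genes (16 listed, 12 tested) had a median log2 fold change of −0.03 in the mean of both, where 1 rose and none fell. AGR2, a protein disulphide isomerase of secretory cells, rose from 7.08 ± 0.261 CPM to 14.5 ± 2.06 in shLMO2-1 (1.03, adjusted p 0.00175) and 12.6 ± 1.6 in shLMO2-2 (0.83, adjusted p 0.00565). IGFBP4 rose in shLMO2-1 (0.39, adjusted p 0.0228), but not without control replicate 3 or shLMO2-1 replicates 2 or 3 (0.0685 to 0.087), and was lower in shLMO2-2 than in shLMO2-1 (−0.46, adjusted p 0.0387), a call lost in 7 of 9 fits (highest 0.177). ABAT fell in shLMO2-2 (−0.78, adjusted p 0.0265), a call lost in 4 of 9 fits (highest 0.0939). TFF1, a classical target of the receptor, was at 0.

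SOX10-associated genes (12 listed, 7 tested) had a median of 0.13 in shLMO2-1, −0.45 in shLMO2-2 and −0.31 in the mean of both, where 1 rose and 1 fell. The shLMO2-2 median is the value of 1 gene, GABRP (SE 0.445, adjusted p 0.579 by edgeR), which averaged 0.74 CPM there. ROPN1 and ROPN1B averaged under 1 CPM in every group. In shLMO2-2 only NES was called, so the list median does not stand for a fall of the list. NES, an intermediate filament gene of progenitor cells, fell from 8.47 ± 1.12 CPM to 4.52 ± 0.309 in shLMO2-1 (−0.90, adjusted p 0.015) and 2.44 ± 0.574 in shLMO2-2 (−1.80, adjusted p 0.000486). The shLMO2-1 call was lost without control replicate 3 or shLMO2-1 replicates 2 or 3 (0.0583 to 0.0651). ERBB3 rose in the mean of both (0.25, adjusted p 0.0285), a call lost in 6 of 9 fits (highest 0.0824).

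Of 12 genes listed as p63 targets 10 were tested. In shLMO2-1 2 rose and 3 fell, with a list median of −0.12, where 8.41% of all tested genes were called. In shLMO2-2 2 rose and 1 fell, with a list median of 0.12 (8.95% of all genes called). The list median in the mean of both was −0.01. ITGB4, the hemidesmosomal integrin, rose from 108.2 ± 4.17 CPM to 145.6 ± 7.07 in shLMO2-1 (0.43, adjusted p 0.00605) and 134.3 ± 10.7 in shLMO2-2 (0.31, adjusted p 0.0254, lost in 4 of 9 fits, highest 0.11). JAG2, a NOTCH ligand, rose in shLMO2-1 (0.80, adjusted p 0.0183), but not without control replicate 2 or shLMO2-1 replicates 2 or 3 (0.0563 to 0.076). KRT14, a basal keratin, fell in both, by 0.53 (adjusted p 0.0298) and 0.58 (adjusted p 0.0198), calls lost in 4 and 3 of 9 fits (highest 0.104 and 0.0541). KRT5 fell in shLMO2-1 from 3203 ± 44.7 to 2648 ± 197.7 CPM (−0.27, adjusted p 0.0271), but not without control replicate 3 or shLMO2-1 replicates 1 or 2 (0.0894 to 0.0953). It was higher in shLMO2-2 than in shLMO2-1 (0.35, adjusted p 0.0362), a call lost in 5 of 9 fits (highest 0.189). The p-values of these lists come from the same fit over all genes, and KRT5 and KRT14 have close keratin relatives, so their counts are uncertain to that extent.

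**Figure D4:**
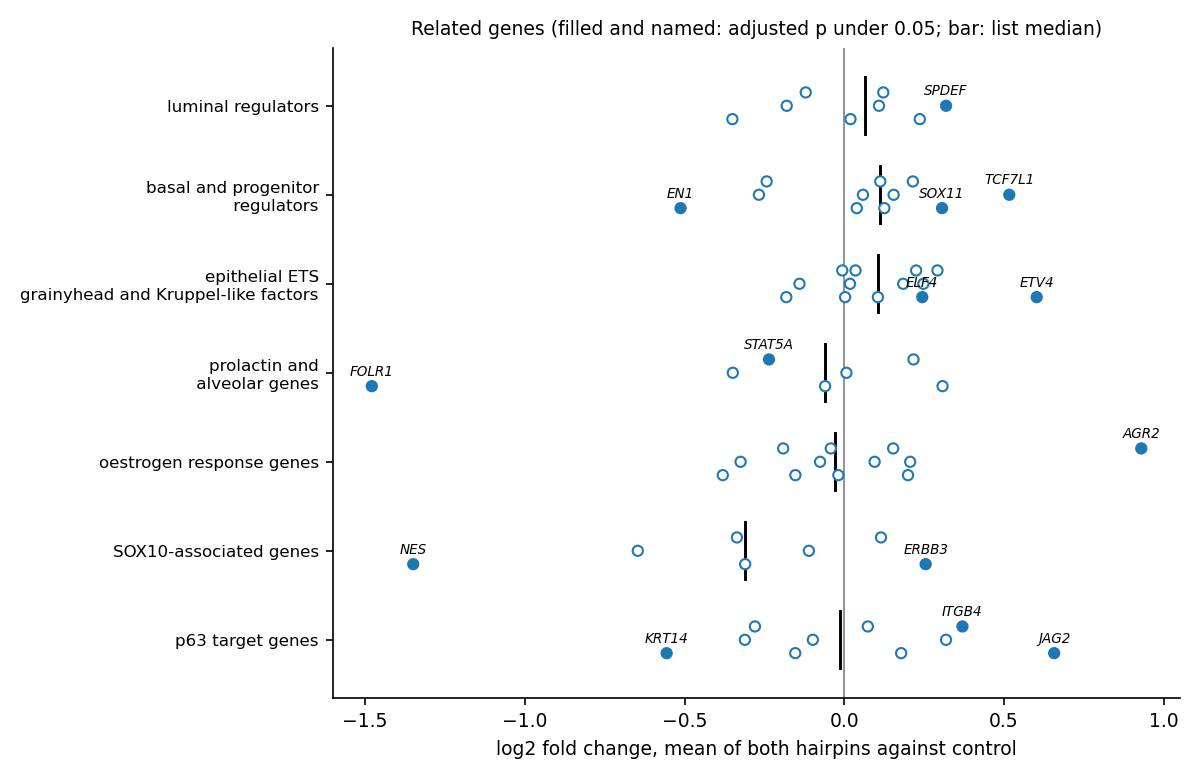
Log2 fold change in the mean of both hairpins against control for the tested genes of the 7 related lists, 1 row per list. Each point is a gene, filled and named where it passed an adjusted p under 0.05, and the vertical bar is the list median. Filled points lie on both sides of 0 in 3 of the 7 rows (basal and progenitor regulators, SOX10-associated genes and p63 target genes), and FOLR1 and NES lie farthest to the left.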

How the data were processed

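RNA from 9 libraries of MDA-MB-468 cells was selected for poly(A) and sequenced, per the labels' protocols. The authors deposited 1 table of estimated counts per gene, and 11.7% to 12.8% of values per library carried a decimal part. Salmon 0.12, DESeq2 1.22.2 and GRCh38.p12 are named in the submitters' processing notes, with no role given. Estimated counts divide reads between similar transcripts, so genes with close copies are uncertain. Counts were rounded and tested with edgeR 4.0.16 in R 4.3.3 (TMM scaling, filterByExpr with a minimum count of 10 and a minimum total of 15, quasi-likelihood F-test, Benjamini-Hochberg adjustment). ELF5, SOX10 and LMO2 failed the filter and were added back, giving 14711 genes. All 9 libraries entered 1 fit of 3 groups with no covariate. CPM was computed over the TMM-scaled counts of the tested genes. Standard errors were derived from the fold change and its F statistic, and intervals of fold changes are at 95%. Intervals and floors of counts cover only counting error, as the sources mention no molecular identifiers.

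Members, lists and rules were chosen with earlier results of these data known. All members were named. Of each list, those named were up to 3 genes called in any comparison, ranked by p for both hairpins averaged, and up to 2 called between the hairpins. The 2 genes of most similar course were named for each called member, as were overlapping genes with more than 6 counts in a library. Gene families were added after seeing the data. Coordinates and lengths come from GENCODE release 29 by symbol, and upstream sequences from RefSeq (GRCh38.p14), which held 7 of the 9 members. The fit was checked on simulated data. Chi-square values per gene between same-group libraries were 4.78 to 25.4, so each library counted once. The 2 highest were those of control replicate 1, at 25.4 against control replicate 2 and 17.3 against control replicate 3. Control replicates 2 and 3 gave 5.99. Alternatives were RLE, total-count and upper-quartile scaling, all genes kept, genes with 10 or more counts throughout, DESeq2 1.42.0, limma-voom (limma 3.58.1), only the groups compared, omission of each library in turn, a threshold of 0.01 and a replicate block. Some genes of the lists and families are not reported here.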

Additional observations from a re-analysis of the deposited data

Results flagged for a closer look

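Among the genes named, 3 from the related lists differed between the hairpins by edgeR's test of that difference (adjusted p under 0.05). ID4 was lower in shLMO2-2 than in shLMO2-1 by a log2 fold change of −0.49, and IGFBP4 by −0.46. KRT5 was higher, by 0.35.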

How the results depend on the processing

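The number of members called moved with several choices. In shLMO2-1 it was 1 in a fit of the groups compared and 1 at a threshold of 0.01, and 1 to 3 with a library left out. In shLMO2-2 it was 2 with DESeq2, 0 in a fit of the groups compared and 0 at 0.01, and 0 to 2 with a library left out. For the mean of both hairpins it was 1 at 0.01, 2 to 3 with a library left out, and 5 with DESeq2 or with genes limited to 10 or more counts throughout. Between the hairpins it was 1 with DESeq2 and 1 in a fit of those groups, and 0 to 1 with a library left out. Among all genes DESeq2 called 1837 in shLMO2-2 and 2374 in the mean of both, where edgeR called 1316 and 1822. With genes limited to 10 or more counts throughout, 1944 were called in the mean of both. Fits of only the groups compared and fits with a library left out held fewer libraries. The cause of these shifts was not tested.

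With the replicate number as a block, 4 members were called in shLMO2-1 and 4 in shLMO2-2 (FOXC1, SOX9, FOXA1 and ESR1 in each), so that ESR1 passed in each hairpin (adjusted p 0.0144 and 0.0367). In the mean of both 5 were called, ELF5 among them (0.0409), and LMO2 passed in shLMO2-1 (0.0423). Genes called in all rose from 1237 to 2218 and from 1316 to 2383. For the mean of both they rose from 1822 to 3024 and between the hairpins from 113 to 256. The labels do not say that a number marks a shared culture or day. Deviations of same-numbered libraries correlated at −0.06 to 0.30 (median 0.20), against −0.31 to 0.18 (median −0.04) for different numbers. Pairs sharing number 1 or 3 lay at 0.14 to 0.30, and those sharing number 2 at −0.06 to 0.05. Control replicate 2 did not correlate best with its own number. The block was kept as an alternative because the labels name no batch, and the part of any shared batch in these results was not tested.

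Over all genes, fits of only the groups compared called 695, 781 and 186 in shLMO2-1, shLMO2-2 and between the hairpins. A threshold of 0.01 left 353, 390, 624 (mean of both) and 46. Between the hairpins, keeping all genes gave 378 and DESeq2 gave 320. With a library left out the counts ran from 546 to 1394, 496 to 1242, 945 to 1595 and 38 to 240.

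Signs turned only in values that did not pass. TP63 in shLMO2-1 was −0.012 without control replicate 2 and ranged up to 0.308 with a library left out. Between the hairpins FOXA1 was 0.0019 with upper-quartile scaling and −0.0378 to 0.0078 with a library left out, GATA3 −0.0141 to 0.0797 and LMO2 −1.002 to 0.45. Alternatives for the genes named from the lists were chosen after seeing the data. Depth limits SOX10, ELF5, LMO2 and TP63 most.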

Other observations

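LMO2, ELF5 and EHF lie on the same arm of chromosome 11 in GENCODE 29. The gap from LMO2 to ELF5 is 586.5 kb and holds the coding genes CAPRIN1, NAT10, ABTB2 and CAT. In the mean of both hairpins edgeR called 0 of these 4, where 12.4% of all tested genes were called. With 4 genes, 0 cannot be told apart from that share. The gap from ELF5 to EHF is 107.3 kb.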
